A study of Homo sapiens with 7 samples.

Results

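The HOX cluster genes are protein-coding genes of the HOXA, HOXB, HOXC and HOXD clusters, here 38 listed ones among the 20033 protein-coding genes of the GENCODE release 44 annotation, of which 10 lie in HOXA on chromosome 7, 10 in HOXB on chromosome 17, 9 in HOXC on chromosome 12 and 9 in HOXD on chromosome 2. The rule that lists them uses names and places and no measured value. H3K4me1, the monomethylated form of lysine 4 on histone H3, was read from the peak lists as intervals, each a stretch with more ChIP reads than the input by the authors' peak calling. Their files give every interval its enrichment relative to input, as a fold at the summit, and a −log10 q, which is larger the less likely the interval is to arise by chance under their model; below, strength means −log10 q unless fold enrichment is named. For each cluster a window was set from the first to the last listed gene with 50 kb added on either side, so that the flanks also hold genes outside the list. The 4 windows held 49 of the 64843 intervals of the control library and 64 of the 92135 intervals of the knockdown library.

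The cells were SW1990, an established human pancreatic cancer line. The control cells (NC) carried a negative control shRNA and the knockdown cells (KMT2D-KD) carried an shRNA against KMT2D, a histone methyltransferase that places H3K4me1 at enhancers. KMT2D, the transcription factor EBF2 and H3K4me1 were each profiled by ChIP-seq in both conditions with 1 library per target and condition, and 1 input library made up the 7 samples. The knockdown line was a stable one, the level of KMT2D in it was not analysed here, and the labels do not say which cells the input came from. Without replicates no test between NC and KMT2D-KD could be made, so values are given with 95% exact intervals that cover counting error only, and a difference outside them has no replicate check.

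HOX genes encode homeodomain transcription factors that give cells their position along the body axis. Within a cluster they stand in the order in which they are used, with low-numbered genes acting towards the head and high-numbered genes acting towards the tail and in the limbs and urogenital tract. In differentiated cells whole clusters or parts of them are kept silent by Polycomb proteins or kept open by Trithorax proteins, the group to which KMT2D belongs, and H3K4me1 typically lies at enhancers and beside active promoters rather than on the promoter itself.

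The sequences under the intervals and that just upstream of HOXD13 looked different, as the following stretches show. All are hg38 sequence on the plus strand, with every CpG in capitals, and those from an interval are the 151 bases centred on its summit. The first is the strongest NC interval of the HOXC window, between HOXC11 and HOXC10, and it holds a run of 46 bases of alternating C and A (chr12:53979640-53979790). The second comes from the KMT2D-KD interval with the highest fold enrichment in any window (chr12:53967635-53967785). That interval overlaps an exon of HOTAIR, a non-coding RNA of the HOXC cluster. The label HOTAIR exon refers to the interval, and whether the printed bases lie in the exon was not determined. The third belongs to the KMT2D-KD interval nearest to a HOX 5′ end, that of HOXC11 (chr12:53972125-53972275). The fourth is from an NC interval inside the HOXB cluster that tied with another there for the highest strength, within the gene record of HOXB3 (chr17:48557113-48557263). The fifth is the strongest HOXA interval of KMT2D-KD without an NC partner, near HOXA9 (chr7:27167913-27168063). The last is the 200 bases directly upstream of the 5′ end of HOXD13 (chr2:176092521-176092720), which no interval covered.
HOXC11 to HOXC10, NC: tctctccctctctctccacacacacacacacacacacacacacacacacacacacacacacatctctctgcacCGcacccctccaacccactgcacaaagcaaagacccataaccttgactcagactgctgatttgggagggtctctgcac
HOTAIR exon, KMT2D-KD: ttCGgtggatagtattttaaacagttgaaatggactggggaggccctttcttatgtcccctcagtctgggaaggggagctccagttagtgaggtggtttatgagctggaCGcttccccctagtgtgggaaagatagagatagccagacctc
HOXC11 upstream interval, KMT2D-KD: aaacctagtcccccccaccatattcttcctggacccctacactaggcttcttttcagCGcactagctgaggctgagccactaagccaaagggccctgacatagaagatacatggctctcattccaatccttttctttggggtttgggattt
HOXB3, NC: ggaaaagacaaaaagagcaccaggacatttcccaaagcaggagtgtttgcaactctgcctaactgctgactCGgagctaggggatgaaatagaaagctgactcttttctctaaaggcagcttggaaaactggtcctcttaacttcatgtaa
HOXA9, KMT2D-KD: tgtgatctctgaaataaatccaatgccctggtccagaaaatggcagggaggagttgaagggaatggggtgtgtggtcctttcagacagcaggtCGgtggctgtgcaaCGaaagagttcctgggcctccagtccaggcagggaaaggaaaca
HOXD13 promoter: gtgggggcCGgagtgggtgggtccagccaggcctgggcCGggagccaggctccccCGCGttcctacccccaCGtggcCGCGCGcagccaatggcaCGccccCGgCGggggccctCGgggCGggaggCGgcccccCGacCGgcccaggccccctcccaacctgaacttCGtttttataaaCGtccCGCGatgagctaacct
The 5 interval stretches held 1, 2, 1, 1 and 2 CpG in the order given. The HOXD13 promoter stretch held 20 CpG in 200 bases. This sets a promoter beside stretches that lie at no HOX 5′ end. In the 300 bases around canonical 5′ ends, CpG relative to the count expected from base content had a median of 0.871 in HOXD. It was 0.957 in HOXA, 0.7 in HOXB and 0.633 in HOXC, against 0.775 over all coding genes. CpG-rich promoters were thus not particular to HOXD.

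H3K4me1 was unevenly spread over the 4 clusters in both conditions. The HOXC window carried the most, 24 in NC and 29 in KMT2D-KD. The HOXB window had 17 and 20, and the HOXA window had 8 and 15. The HOXD window had none in either library. HOXC thus held 49% of the windows' intervals in NC (34.4 to 63.7%) and 45.3% in KMT2D-KD (32.8 to 58.3%).

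**Figure D1:**
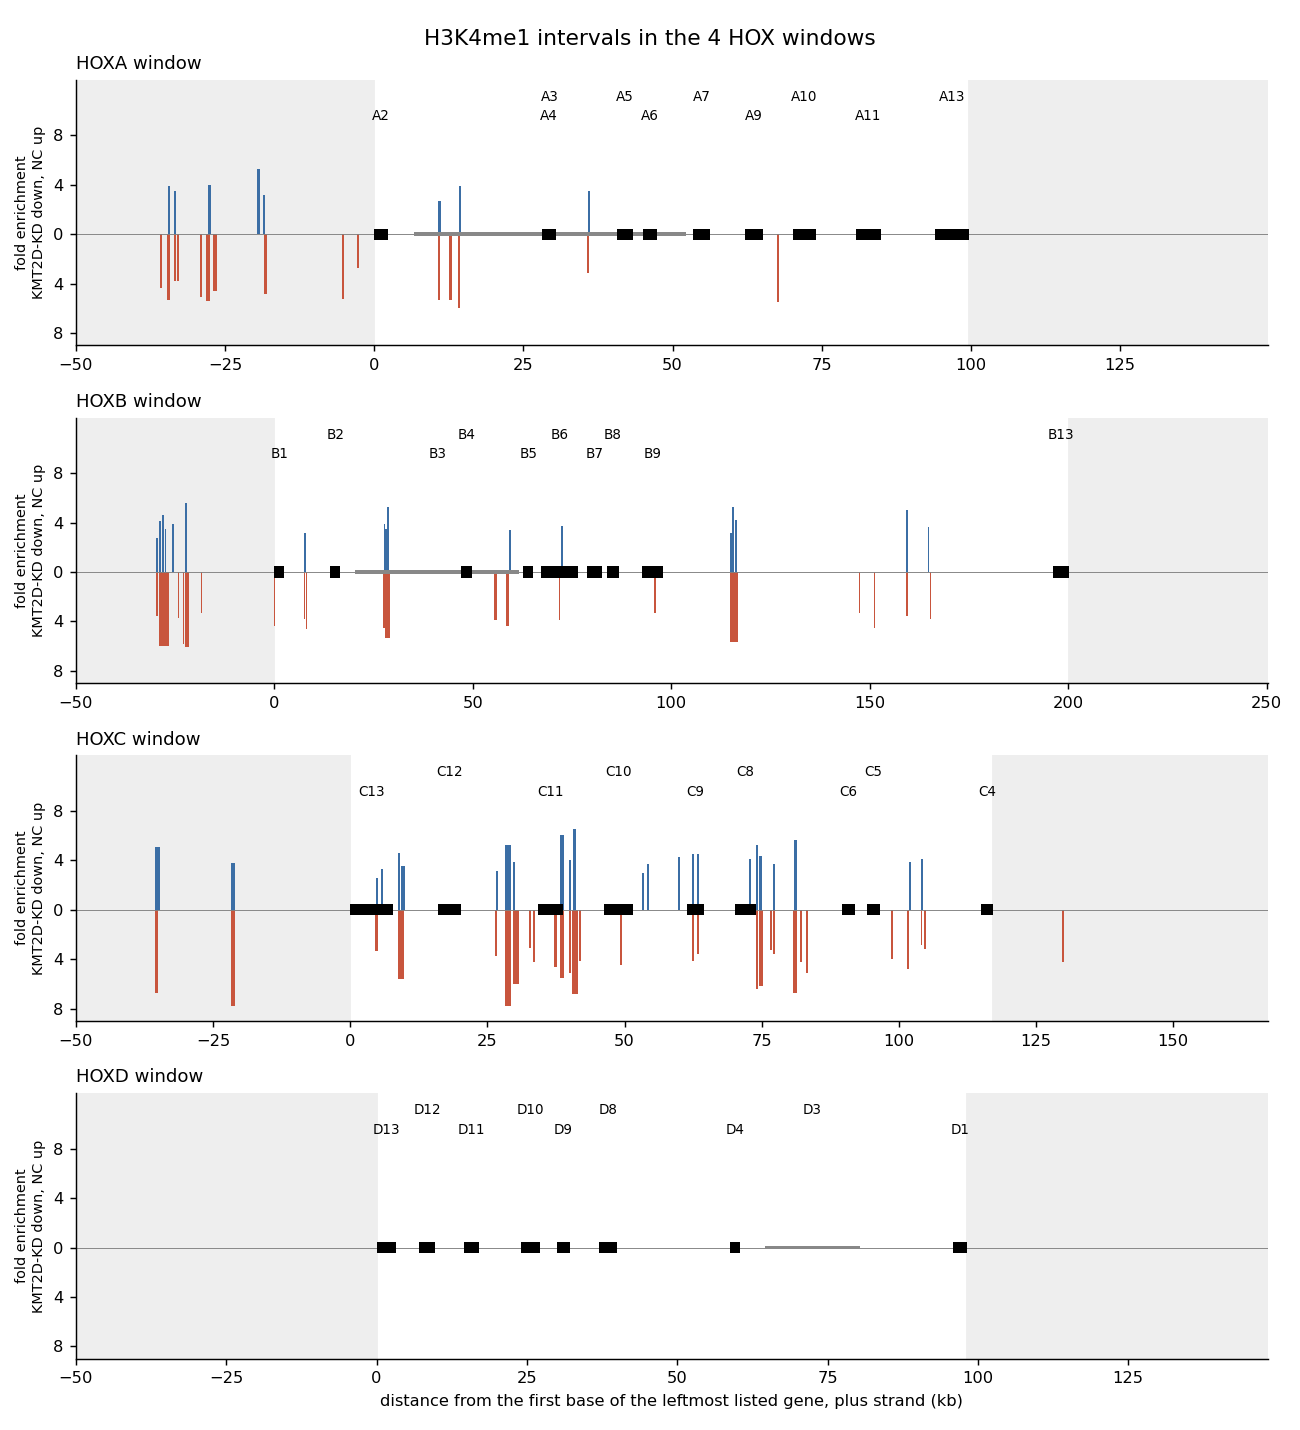
H3K4me1 intervals in the 4 HOX windows, with NC intervals drawn upwards in blue and KMT2D-KD intervals downwards in red; bar height is the authors' fold enrichment over the input, and intervals narrower than 0.35 kb are drawn at that width. The x axis is the distance in kb from the leftmost listed gene, grey shading marks the 50 kb flanks, black boxes are canonical transcripts, and thin grey bars are canonical transcripts over 10 kb (HOXA3, HOXB3, HOXD3). The HOXC window is filled along its cluster, the HOXA window mostly left of HOXA4, and the HOXD window is empty.

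The windows differ in length, so the counts were set per 100 kb. HOXC had 11 intervals per 100 kb in NC (7.08 to 16.4) and 13.4 in KMT2D-KD (8.94 to 19.2), against 3.12 and 4.14 over chromosome 12. HOXB had 5.66 (3.30 to 9.07) and 6.66 (4.07 to 10.3), against 3.48 and 5.41 over chromosome 17. HOXA had 4.01 (1.73 to 7.89) and 7.51 (4.20 to 12.4), against 2.42 and 3.15 over chromosome 7. The HOXC density therefore lay above that of its chromosome by more than counting error in both libraries, HOXA in KMT2D-KD only, and HOXB in neither. Whether the clusters differ in this was not tested. Tiles of 200 kb with at least 5 coding 5′ ends had a median of 5 (NC) and 9 (KMT2D-KD) intervals and a 90th percentile of 16 and 25. The HOXA window (199.7 kb) lay between median and 90th percentile, with 8 and 15. The HOXC window (217.2 kb) lay above the 90th percentile, with 24 and 29. Among the clusters, the counting intervals of HOXC and HOXB overlapped in both conditions, as did those of HOXC and HOXA.

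**Figure D2:**
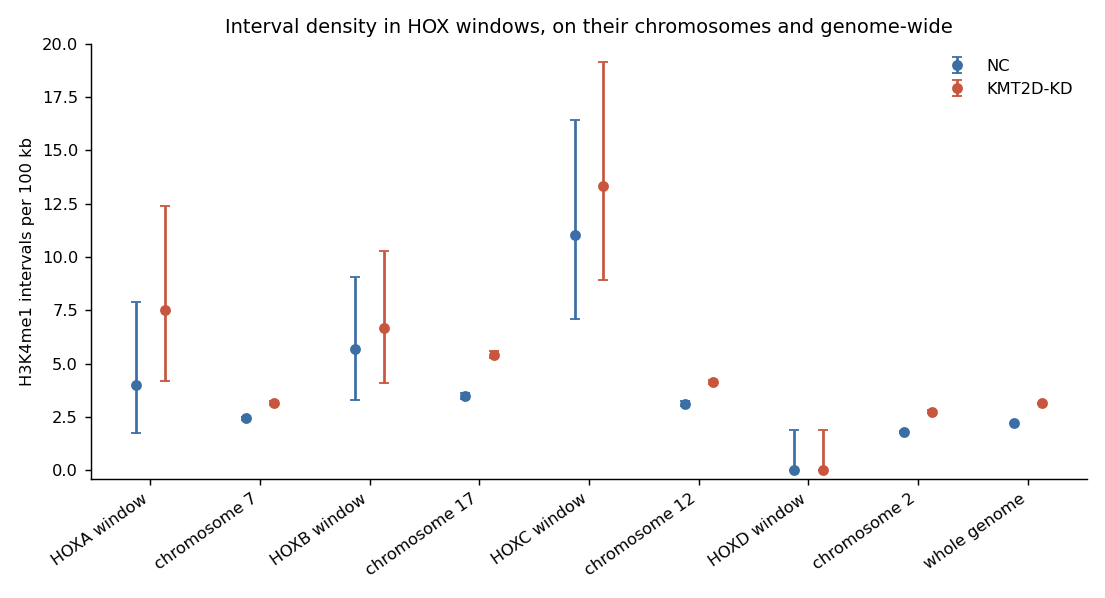
H3K4me1 intervals per 100 kb in each HOX window, on the chromosome that holds it and over the whole genome, in NC (blue) and KMT2D-KD (red); error bars are 95% exact Poisson intervals and cover counting error only. HOXC stands at 11 and 13.4, and HOXD at 0 with an upper bound of 1.86 in both.

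The local background of the HOXC window was above that of its chromosome. The authors' fold enrichments and p-values allow the fragments at each summit and the background expected there to be recovered, and the median background of HOXC intervals was 1.35 (NC) and 1.42 (KMT2D-KD) times the lowest of the list. Over all chromosome 12 intervals the medians were 1.15 and 1.13. The HOXA window had 1.34 in NC and 1.06 in KMT2D-KD, so in NC the raised background was not particular to HOXC. None of the HOXC intervals lay at the lowest background, whereas 37.8% of the NC list and 33.4% of the KMT2D-KD list did. Summits in the HOXC window held a median of 13 fragments in NC and 15 in KMT2D-KD, against 13 and 12 over chromosome 12. The part that background, which can follow copy number or open chromatin, plays in the HOXC density was not tested.

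The HOXD window stayed without an interval from end to end. An exact Poisson upper bound of 1.86 intervals per 100 kb applies to both libraries, which lies below the genome-wide densities of 2.21 in NC and 3.14 in KMT2D-KD. It lies below the density of chromosome 2 in KMT2D-KD (2.74) but not in NC (1.80). The nearest interval left of HOXD13, the digit and limb-end gene at the left edge of the cluster, lay 73.4 kb away in NC and 68.4 kb away in KMT2D-KD. To the right of HOXD1 the nearest lay 371 kb (NC) and 370 kb (KMT2D-KD) away. The stretch without intervals thus measured 543 kb for NC and 537 kb for KMT2D-KD. Among 200-kb tiles of the genome that hold at least 5 coding 5′ ends, 65 of 1046 (6.21%) were empty in both libraries, so the HOXD window was not the only gene-dense stretch of its kind. The median such tile had 5 (NC) and 9 (KMT2D-KD) intervals.

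With KMT2D knocked down, the windows of HOXA, HOXB and HOXC held more intervals than in NC, and so did the genome. The ratio KMT2D-KD over NC on the log2 scale was 0.39 for the 4 windows together (−0.17 to 0.95), against 0.51 for the whole lists. HOXA had the ratio farthest from 0 at 0.91 (−0.42 to 2.35), HOXC had 0.27 (−0.56 to 1.12) and HOXB 0.23 (−0.77 to 1.26). Every one of these counting intervals includes 0 and also the whole-list value, so neither a change in the windows nor a departure from the genome was detectable at this depth. When the KMT2D-KD list was limited to its 64843 top intervals by q, to match NC in number, the windows held 49 and 51, HOXC had 24 in each, HOXA had 8 and 11, and the HOXB order turned to 17 and 16.

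Strong intervals showed a larger gap than all intervals. At a −log10 q of at least 5, the count over the 4 windows was 12 for NC against 29 for KMT2D-KD, for which the log2 ratio was 1.27 (0.26 to 2.38), while the whole lists gave 0.86. HOXA had 1 and 9 such intervals, HOXC 7 and 15, and HOXB 4 and 5. Of the windows' intervals, 24.5% in NC and 45.3% in KMT2D-KD reached this level, against 25.3% and 32.4% of the whole lists. The counting interval excluded 0 for the windows but included the whole-list ratio. The lowest background of the list was 1.85 fragments in NC and 1.64 in KMT2D-KD. At that level 14 fragments gave a −log10 q of 5.59 in NC, and 13 gave 5.77 in KMT2D-KD. The part that this plays in the gap was not tested.

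Intervals also covered more bases in KMT2D-KD. The covered length over the windows was 18902 bases in NC and 32076 in KMT2D-KD, which is 2.07% and 3.50% of their length, while 1.10% and 1.69% of the genome were covered. HOXC had 10536 and 14569 covered bases, HOXB 5810 and 11742, and HOXA 2556 and 5765. For HOXB the log2 ratio was 1.02 for covered bases and 0.23 for intervals, and 2 broad KMT2D-KD intervals there each spanned 3 NC intervals. These were a 2428-base interval in the left flank beyond HOXB1 (chr17:48499560-48501987) and a 1996-base interval in an intron of LINC03057 between HOXB9 and HOXB13 (chr17:48643411-48645406).

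Most NC intervals were found again in KMT2D-KD. An overlap of at least 1 base was seen for 38 of the 49 NC intervals (77.6%, 63.4 to 88.2%), against 69.7% of the whole NC list. In the other direction 32 of the 64 KMT2D-KD intervals overlapped an NC interval (50%, 37.2 to 62.8%), against 46.6%. By cluster, 7 of 8 NC intervals in HOXA, 13 of 17 in HOXB and 18 of 24 in HOXC had a partner. When a gap of up to 1000 bases was allowed, 46 of 49 NC and 45 of 64 KMT2D-KD intervals had a partner, so 8 of the 11 unmatched NC intervals lay close to a KMT2D-KD interval without touching it. In the windows unmatched intervals were the weaker ones, with a median −log10 q of 2.85 against 3.58 for matched intervals in NC and 4.20 against 6.07 in KMT2D-KD. Neither the partners within 1000 bases nor these medians were computed for the whole lists, so neither can be called particular to HOX.

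Where an interval was present in both libraries, its fold enrichment was mostly the higher one in KMT2D-KD. This was so for 31 of 38 matched NC intervals (81.6%, 65.7 to 92.3%), against 68.3% of the 45195 matched intervals of the whole list, and the lower bound of the former lies below the latter. The median log2 ratio of fold enrichment was 0.36 in the windows and 0.21 in the whole list. Higher values in KMT2D-KD were found for 6 of 7 pairs in HOXA, 12 of 13 in HOXB and 13 of 18 in HOXC. Several NC intervals share a KMT2D-KD partner, so the pairs are not independent. At the lowest background of each list, the same number of fragments gives a higher fold enrichment in KMT2D-KD. The part that this plays was not tested.

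**Figure D3:**
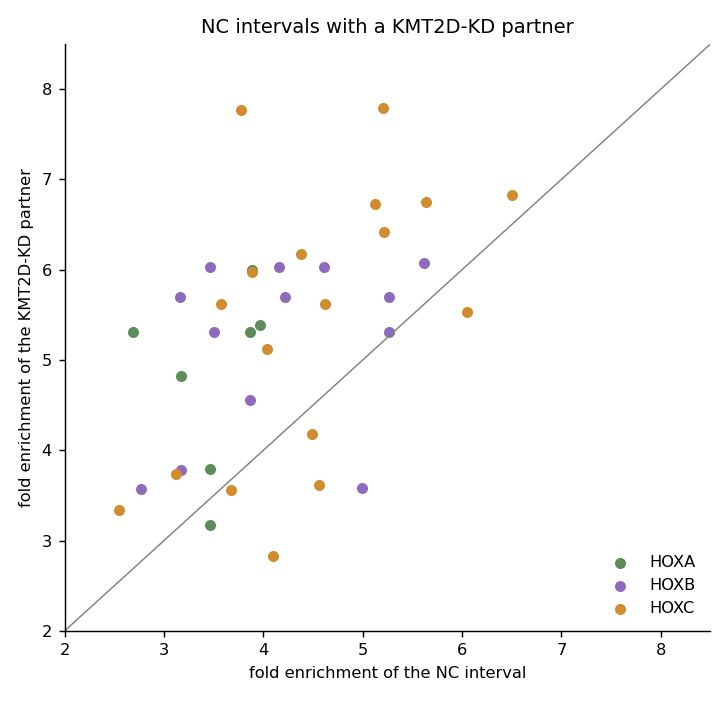
Fold enrichment over the input, as given by the authors, of the 38 NC intervals that overlap a KMT2D-KD interval (x axis) and of the overlapping KMT2D-KD interval (y axis, the one sharing the most bases where there are several), coloured by cluster. The line marks equal values, and 31 of the 38 points lie above it.

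The pairs with the largest gaps in either direction lay in the HOXC window. An interval 21.0 kb upstream of HOXC13, the hair and nail gene (chr12:53917109-53917813), was the strongest of all windows in KMT2D-KD, at 7.77-fold enrichment and a −log10 q of 13.9, and its NC partner had 3.77 and 3.35. The HOTAIR exon interval was the next in strength, with a fold enrichment of 7.79 in KMT2D-KD (chr12:53967001-53968192, −log10 q 12.2) and 5.21 in NC (5.78). The opposite order was found in the HOXC4 record, where an interval had a fold enrichment of 4.09 in NC and 2.82 in KMT2D-KD (chr12:54042769-54043025).

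The strongest NC intervals of the HOXC window had partners of similar strength. The first lay between HOXC11 and HOXC10 (chr12:53979343-53979890) with 6.50-fold enrichment at a −log10 q of 9.93 in NC, and 6.83-fold at 10.7 in KMT2D-KD. The second lay on an exon in the 3′ part of HOXC11 (chr12:53977074-53977820), with 6.05 and 8.55 (NC) against 5.53 and 7.31 (KMT2D-KD). The strongest unmatched intervals were an NC interval 1344 bases upstream of HOXC9 (chr12:53998591-53998817, fold enrichment 4.31, −log10 q 3.86) and a KMT2D-KD interval 6127 bases upstream of HOXC6 (chr12:54021891-54022313, 5.11 and 5.77).

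In the HOXB window the strongest NC interval lay in the left flank, 24.4 kb beyond HOXB1 (chr17:48506079-48506593), with a fold enrichment of 5.62 in NC and 6.07 in KMT2D-KD. Next, tied with an interval in the LINC03057 record, was the interval in the HOXB3 record, which lies on an exon of HOXB-AS2 (chr17:48557005-48557330), with 5.27 in NC and 5.31 in KMT2D-KD. Its summit held 14 fragments in NC, and that of its KMT2D-KD partner held 13. In KMT2D-KD the broad flank interval came first, at 6.03-fold enrichment and a −log10 q of 8.74, and the strongest unmatched interval lay in the same flank, beside the partner of the strongest NC interval (chr17:48505450-48505865, 5.84 and 7.14). The strongest unmatched NC interval was also in this flank (chr17:48502851-48503086, 3.86 and 2.85). The flank beyond HOXB13 had no interval in either library.

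HOXA showed the same one-sidedness. Its left flank, beyond HOXA2, held 5 of 8 NC and 10 of 15 KMT2D-KD intervals, and the flank beyond HOXA13 held none. The strongest NC interval was an unmatched interval in that left flank (chr7:27080789-27081243, fold enrichment 5.27, −log10 q 5.59), followed by another at 3.97 (chr7:27072577-27072808). The partner of the latter was the strongest in KMT2D-KD, at 5.39 with a −log10 q of 8.01 (chr7:27072186-27072801). Second in KMT2D-KD was an interval in an intron of HOXA3 (chr7:27114323-27114692), with a fold enrichment of 6.0 against 3.89 in NC.

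At the level of genes, an interval lay in the gene body of 9 HOX genes in NC, and of 13 in KMT2D-KD. These are 23.7% (11.4 to 40.2%) and 34.2% (19.6 to 51.4%) of 38. Over all coding genes the shares were 42.2% and 52.7%, but HOX genes are short, with a median gene record of 4218.5 bases against 27471. No HOX gene had an interval in NC only (3.16% of all coding genes), 4 had one in KMT2D-KD only (13.6%), and 25 had none in either (44.1%). Summed over gene records, 2.29% of HOX bases were covered in NC and 3.51% in KMT2D-KD, against 1.42% and 2.21% for all coding genes. Bases in overlapping records count once per record in these sums, and the HOXC6 record overlaps those of HOXC4, HOXC8 and HOXC9. Over the 4 clusters without flanks, where each base counts once, 2.59% and 4.21% were covered, against 1.10% and 1.69% of the genome. By cluster the share summed over gene records was 5.86% and 7.42% in HOXC, 1.29% and 3.14% in HOXB, 0.854% and 1.74% in HOXA, and 0 in HOXD.

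**Figure D4:**
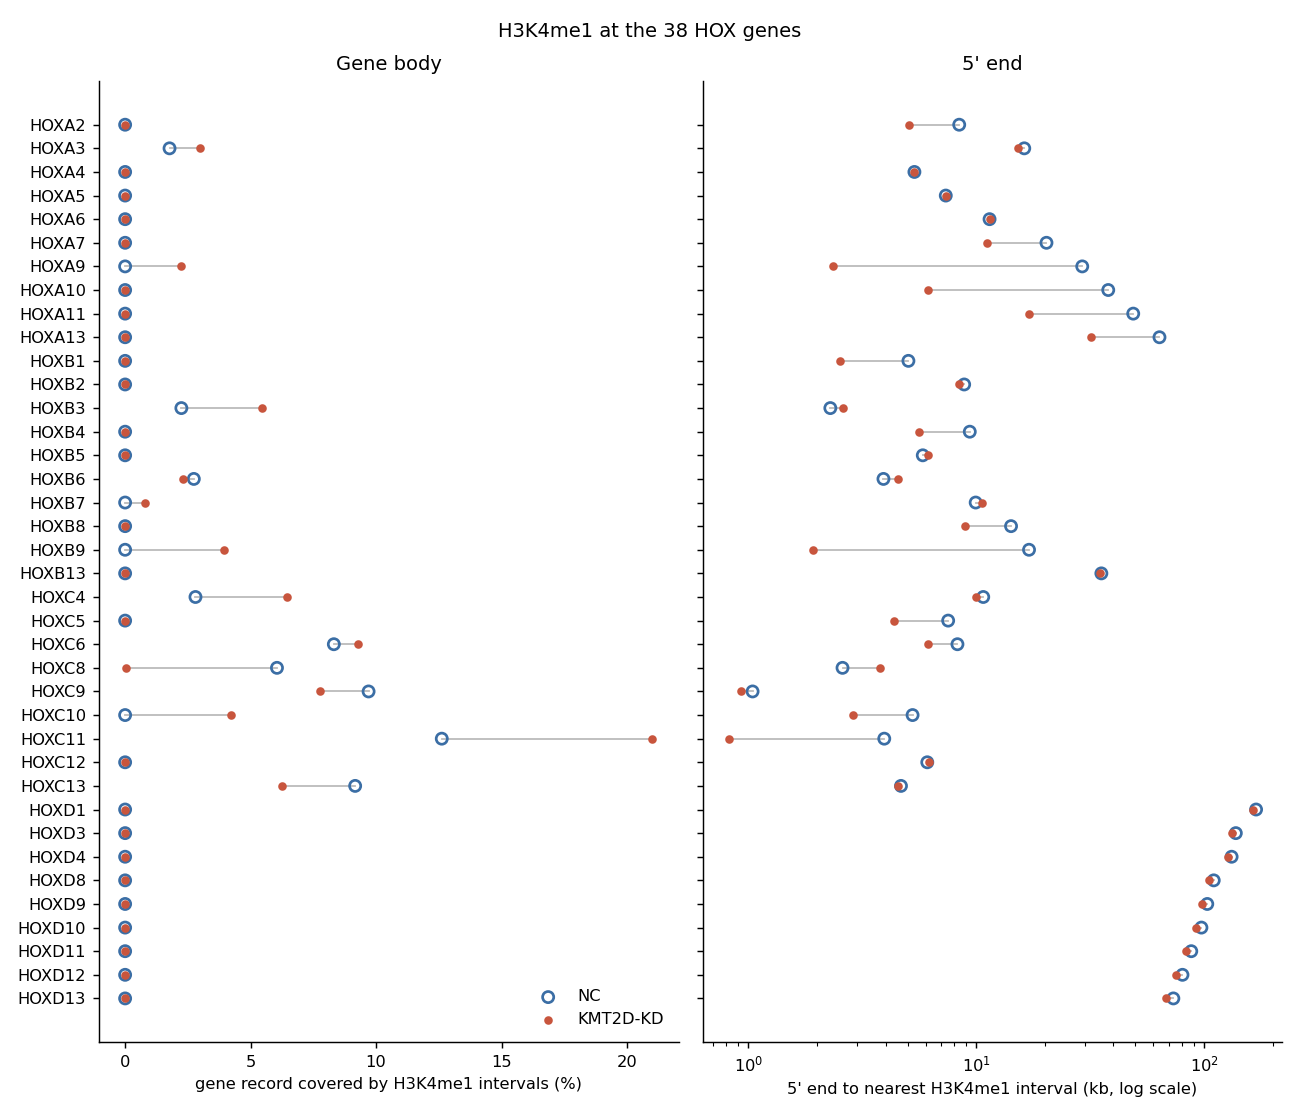
Left, share of each HOX gene record covered by H3K4me1 intervals in percent; right, distance from the canonical 5′ end to the nearest interval in kb on a log axis, for NC (open blue circles) and KMT2D-KD (red points). HOXC11 has the largest covered share, 12.6% in NC and 21.0% in KMT2D-KD, and all 9 HOXD genes lie over 68 kb from an interval.

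In HOXC, intervals lay in 6 of the 9 genes in NC, and in 7 after knockdown. HOXC11, one of the posterior genes, was covered over 12.6% of its record in NC by 1 interval and over 21.0% in KMT2D-KD by 2. HOXC9, a gene of thoracic identity, had 819 covered bases in NC and 656 in the knockdown, and HOXC13 had 707 and 482. HOXC8, which acts in brachial and thoracic segments, had 229 covered bases in NC, and its overlap in KMT2D-KD was 1 base of a neighbouring interval. HOXC10, a lumbar and hindlimb gene, had an interval in KMT2D-KD only (chr12:53988029-53988247, 219 bases). HOXC5 and HOXC12 had none.

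The records of HOXC4 and HOXC6 run across their neighbours, so their counts include intervals beside other HOX genes. HOXC6 had 10 (NC) and 9 (KMT2D-KD) intervals over a record of 40200 bases, and HOXC4 had 3 and 7 over 39100 bases. Neither had an interval within its canonical transcript, which spans 2384 bases for HOXC6 and 2196 for HOXC4. By canonical transcripts the number of HOX genes with an interval was 7 in NC and 9 in KMT2D-KD. The share of all coding genes by canonical transcripts was not computed.

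In HOXB, HOXB3 had 5 intervals in each library, with 1256 and 3049 covered bases. HOXB6 had 1 interval in each, 253 bases in NC and 214 in KMT2D-KD, which did not overlap each other. HOXB7 and HOXB9 had an interval in KMT2D-KD only, and it was the same 204-base interval for both (chr17:48624241-48624444, fold enrichment 3.29). The other 6 genes of the cluster, which are HOXB1, a hindbrain gene, HOXB2, HOXB4, HOXB5, HOXB8 and HOXB13, a prostate and hindgut gene, had none in the gene body.

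In HOXA, HOXA3, a gene of the pharyngeal arches, had 3 (NC) and 4 (KMT2D-KD) intervals, covering 821 and 1391 bases. HOXA9, best known from blood stem cells and leukaemia, had an interval in KMT2D-KD only (chr7:27167882-27168163, fold enrichment 5.48, −log10 q 6.32). This interval lies in an intron of the gene record but 2345 bases upstream of the canonical HOXA9 transcript, so its call depends on the transcript used. The other 8 genes, HOXA2, HOXA4, HOXA5, HOXA6, HOXA7, HOXA10, HOXA11 and HOXA13, had none in either library. None of the 9 HOXD genes (HOXD1, HOXD3, HOXD4, HOXD8, HOXD9, HOXD10, HOXD11, HOXD12, HOXD13) had an interval either.

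The 5′ ends themselves carried few intervals. Within 1000 bases of the canonical 5′ end, intervals lay at 0 HOX genes in NC and at 2 in KMT2D-KD, against 5.71% and 11.2% of all coding genes. With 38 genes the shares of 0% (0 to 9.25%) and 5.26% (0.644 to 17.7%) are not apart from these by more than counting error. The genes were HOXC9, with an interval 928 bases downstream, and HOXC11, with an interval 821 bases upstream, whose sequence is given above. In NC the nearest interval to HOXC9 lay 1043 bases downstream, just outside the window, and to HOXC11 3948 bases downstream. So the HOXC9 entry is the same interval pair on either side of the limit, whereas the HOXC11 interval had no NC partner.

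Within 5 kb of the 5′ end there were intervals at 6 genes in NC (15.8%, 6.02 to 31.3%) and at 11 in KMT2D-KD (28.9%, 15.4 to 45.9%), against 30.7% and 43.5% of all coding genes. An interval in KMT2D-KD only was seen for 5 of the 38 and in NC only for 0, against 16.3% and 3.49% of all coding genes. HOXB3, HOXB6, HOXC8, HOXC9, HOXC11 and HOXC13 had them in both, and HOXA9, HOXB1, HOXB9, HOXC5 and HOXC10 in KMT2D-KD only. At HOXB1 the interval lay 2519 bases downstream (chr17:48528314-48528492, fold enrichment 4.41), and at HOXC5 4373 bases downstream (chr12:54037423-54037712, 3.98). HOXC11 had 3 (NC) and 6 (KMT2D-KD) intervals within this distance, more than any other HOX gene in KMT2D-KD.

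The median distance from a HOX 5′ end to the nearest interval was 11091 bases in NC and 7895.5 in KMT2D-KD, against 20262 and 8618 for all coding genes. It was shortest in HOXC, 5256 and 4373 bases, and longest in HOXD, 103373 and 98415 bases. The KMT2D-KD interval was the nearer one for 30 of 38 genes (78.9%, 62.7 to 90.4%), against 71.1% of all coding genes, and the 38 genes had only 17 distinct nearest intervals in NC and 20 in KMT2D-KD. In HOXA, 9 genes shared the nearest NC interval, and 6 of the 10 genes were nearest to the HOXA9 interval in KMT2D-KD. All 9 HOXD genes shared the same one in each library.

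Along the clusters, the genes were split into anterior (groups 1 to 3), central (4 to 8) and posterior (9 to 13), with each base given to the nearest 5′ end. In HOXC the posterior part was covered over 10.01% in NC and 13.3% in KMT2D-KD, while the central part had 4.99% and 8.40%. HOXA had 2.90% and 5.57% in the anterior part, 0.546% and 0.581% in the central part, and 0 and 0.723% in the posterior part. HOXB had 2.95% and 6.97% in the anterior part, 0.492% and 1.11% in the central part and 1.77% and 3.23% in the posterior part. The parts go by gene number and are not contiguous, because the canonical 5′ ends of HOXA3 and HOXB3 lie among central genes. The stretch given to HOXB3 lies between those of HOXB4 and HOXB5, with 232 (NC) and 1022 (KMT2D-KD) covered bases. That of HOXA3 lies between HOXA6 and HOXA7, with 0. By this assignment the most covered part was the posterior one in HOXC, which has no anterior genes. It was the anterior one in HOXA and HOXB, in both libraries.

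Most intervals lay outside coding exons, which is a description only, since shares over the whole lists or the windows' bases were not computed. Of the 49 NC intervals 22 were intronic, 18 intergenic, 5 on an exon of a non-coding transcript and 4 on an exon of a coding transcript. The 64 KMT2D-KD intervals fell 29, 23, 6 and 6 in the same order. In the HOXC window 12 of 24 NC and 14 of 29 KMT2D-KD intervals were intronic.

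The intervals were poorer in CpG than the rest of the windows. Inside NC intervals there were 1.0 CpG per 100 bases, and 2.38 in the rest of the windows. Inside KMT2D-KD intervals there were 1.03, and 2.40 outside. Over the genome the values were 0.834 inside and 1.0 outside in NC, and 0.981 and 1.0 in KMT2D-KD, so the CpG density under HOX intervals was close to that of the genome while the surrounding clusters were richer. The gap was present in HOXA, HOXB and HOXC in both libraries, and the HOXD window, which had no interval, held 2.49 CpG per 100 bases. In GC share the intervals were like the windows, with medians of 47.5% (NC) and 47.9% (KMT2D-KD) against 46.9 to 49.2% for the 4 windows, and 43.7% and 45.6% for the intervals of the whole lists.

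**Figure D5:**
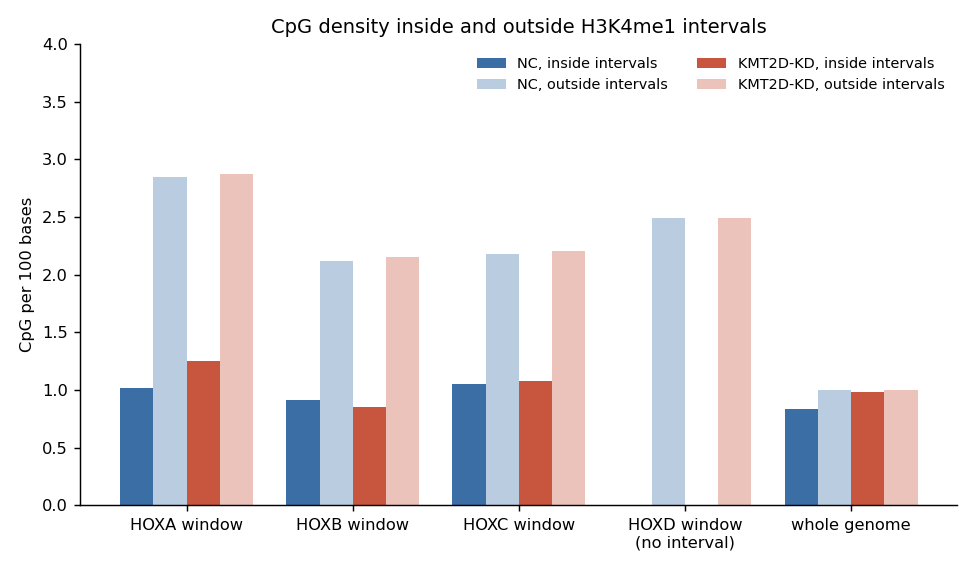
CpG per 100 bases inside (dark) and outside (pale) H3K4me1 intervals in each HOX window and over the whole genome, for NC (blue) and KMT2D-KD (red). Inside values lie between 0.852 and 1.25 in the HOX windows, and outside values between 2.12 and 2.87.

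A motif bound by HOX proteins together with PBX partners, TGATNNAT on either strand, was searched at the summits and at promoters. It was found in the 200 bases around the summit of 2 of 49 NC intervals (4.08%, 0.498 to 13.98%) and of 4 of 64 KMT2D-KD intervals (6.25%, 1.73 to 15.2%), against 9.85% and 8.39% of the whole lists, a difference within counting error. In the 300 bases from 250 before to 50 after the canonical 5′ end, 9 of 38 HOX genes had a match (23.7%, 11.4 to 40.2%) against 4.76% of all coding genes. The motif is rich in A and T, and these 300-base stretches had a median GC share of 55.3% at HOX genes against 63.7% at all coding genes. The part that this plays in the gap was not tested. The 9 HOX genes with a match were HOXA2, HOXA5, HOXB1, HOXB2, HOXB5, HOXB7, HOXB9, HOXC11 and HOXD11. None of the 9 windows held an interval.

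Of 17 listed non-coding RNAs of the clusters, intervals lay in 4 for NC and in 5 for KMT2D-KD. The added one was HOTAIRM1, a HOXA transcript of myeloid cells. No share over all non-coding genes was computed, so these counts cannot be called low or high. HOTAIR, which is known to bind Polycomb proteins, had 3 intervals over 1960 bases in NC and 5 over 3478 bases in KMT2D-KD, and its record overlaps that of HOXC11. HOXB-AS3 shares its 5 intervals in each library with HOXB3, and HOXA-AS2 (2 and 3) and HOXA-AS3 (1 and 1) share theirs with HOXA3. HOTTIP, beside HOXA13, and the HOXD transcripts HOXD-AS2, HAGLR and HAGLROS had none. Neither had HOXC-AS1, HOXC-AS2, HOXC-AS3 and HOXC13-AS, although HOXC9 and HOXC13 carried intervals in both libraries, nor HOXA10-AS, HOXA11-AS, HOXB-AS1 and HOXB-AS4.

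The clusters also encode microRNAs that target HOX messages, and none of the 6 listed had an interval on its hairpin. Hairpins are short, and no share over other microRNAs was computed. The 5′ end of MIR196A2 in HOXC lay 339 bases (NC) and 3491 bases (KMT2D-KD) from the nearest interval, and MIR196B in HOXA 33234 and 1400. Their mature 5p forms share a seed, shown in capitals (bases 2 to 8, sequences from RefSeq, GRCh38.p14).
hsa-miR-196a-5p: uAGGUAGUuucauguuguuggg
hsa-miR-196b-5p: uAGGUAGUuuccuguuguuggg
MIR10A in HOXB lay 7774 and 3994 bases from an interval, MIR196A1 in HOXB 10857 and 8115, MIR615 in HOXC 6632 and 3473, and MIR10B in HOXD 130957 and 125999.

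Among 8 listed cofactors that bind DNA together with HOX proteins, 3 (NC) and 6 (KMT2D-KD) had an interval in the gene body, where 42.2% and 52.7% of all coding genes had one. PBX3 had 11 and 10, and PBX4 had 8 and 10. MEIS1 and MEIS2 had none in NC and 1 each in KMT2D-KD, PBX2 had 0 and 2, and PKNOX2 had 1 and 3. MEIS3 and PKNOX1 had none.

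Among 12 listed regulators of HOX expression, 7 (NC) and 9 (KMT2D-KD) had an interval, to be read against the same 42.2% and 52.7%. The retinoic acid receptor genes all had intervals, RARA 11 and 24, RARB 24 and 29, and RARG 3 and 8. These counts are not set against gene length, and the RARB record is much the longest. It spans chr3:24687887-25597932, with 11102 (NC) and 17241 (KMT2D-KD) covered bases. The RARA record spans chr17:40309180-40357643, with 6545 and 13269. CTCF, which insulates parts of the clusters, had 3 and 7, and CDX1 had 5 and 4. EZH2, the Polycomb methyltransferase, and KMT2A, the Trithorax methyltransferase of HOX promoters, had 1 interval each in KMT2D-KD and none in NC. CDX2, CDX4 and SUZ12 had none.

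KMT2D and EBF2 intervals were not found in any HOX window. Their lists held 238 (KMT2D) and 293 (EBF2) intervals in NC and 318 and 311 in KMT2D-KD, and 0 in the windows, read as an upper limit of 3 intervals of each list, allows a share of up to 1.26%, 1.02%, 0.943% and 0.965% in that order. The nearest was a KMT2D interval of KMT2D-KD 2.39 Mb from the HOXD cluster, and the farthest nearest one lay 41.8 Mb from HOXC. With lists this short, absence from the windows says little about occupancy there.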

How the data were processed

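The peak lists of SW1990 cells were used, 1 for each ChIP library, with the groups given by the titles. The authors removed reads of low quality and aligned the rest to the genome. The submitters' processing notes name BWA, MACS2, HOMER and hg38, and settings, duplicate handling and pooling are not given in the sources used here. No interval of the 6 lists reached past an hg38 chromosome end. The deposited fold enrichment over the input (a ratio) and the deposited −log10 p-values and −log10 q-values are the authors' own and were used to rank, filter or describe intervals. The last deposited column, the summit offset from the start, was used as the authors gave it, a position with no unit. The input library has no list of its own.

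Genes and 5′ ends (of the canonical transcript) came from GENCODE release 44, and coordinates are 1-based. The windows, gene bodies and 5′ windows (1000 bases either side) were intersected with the intervals in Python 3.11.15 with numpy 2.4.6 and scipy 1.17.1. Densities carry exact Poisson intervals, shares exact Clopper-Pearson intervals (for KMT2D and EBF2, a count of 0 is given the limit of 3 counts instead) and log2 ratios exact conditional binomial intervals, each at 95%. Fragments and background at a summit were solved from fold enrichment and p, and returned whole fragments to within 0.001 in −log10 p. Depth is known only through these recovered values, with a median of 12 fragments at a summit in each H3K4me1 list. Scripts were tested on simulated data. No test between conditions was made. All listed HOX genes are named, those with an interval in the body or within 5 kb of the 5′ end with values, and so are the 2 strongest intervals by q and the strongest unmatched one of each cluster and list; the largest pair gaps, the broad HOXB intervals and the HOTAIR interval were chosen after their values were seen. Members and gene lists were chosen with earlier results of these data known. The 200-kb tiles and the CpG density were added after the data were seen. Some genes and sequences are not reported here. RefSeq held mature sequences for the microRNAs printed.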

Additional observations from a re-analysis of the deposited data

How the results depend on the processing

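Of 56 alternative values, 42 stayed within the counting interval or 1.5 times of the value given above. For the log2 ratios, 26 of 28 alternatives were above 0, and the exceptions came with equal numbers of top intervals, where HOXB changed sign to −0.09, its interval including 0 either way, and HOXC had 0. A −log10 q of at least 5 gave 1.27 for the 4 windows and 3.17 for HOXA, and a fold enrichment of at least 5 gave 1.32 and 3.0, the HOXA values resting on 1 NC interval. The whole lists gave 0.86 and 0.97 at these settings. Both lie within the counting intervals of the 4 windows, 0.26 to 2.38 and 0.21 to 2.54. The HOXD window was empty with a flank of 50 kb or none, and held 1 NC and 2 KMT2D-KD intervals with a flank of 100 kb. Within 1000 bases 93.9% of NC and 70.3% of KMT2D-KD intervals had a partner, and at the stricter q 34.5% of KMT2D-KD intervals had. At that q, 4 HOX genes in NC and 8 in KMT2D-KD had an interval in the gene body, and 0 genes in KMT2D-KD near the 5′ end. With 5000 bases added, 20 genes in KMT2D-KD had an interval. Within 3000 bases of the 5′ end there were 3 genes in NC and 7 in KMT2D-KD, and at the 5′ end of the gene record 1 gene in NC (HOXC4). For these alternative gene counts the shares of all coding genes were not computed, nor were whole-list shares for the alternative partner counts. The share of windows without an interval and the CpG densities had no alternative. Intervals cover counting error only, and 1 library per condition leaves replicate spread unknown. No paired analysis was possible because each group has 1 library and no test was made.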

Other observations

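Of 12 listed neighbours of the HOX clusters, the same 6 had an interval in the gene body in NC and in KMT2D-KD, a share near that of all coding genes (42.2% and 52.7%). Their intervals numbered 22 in NC and 29 in KMT2D-KD. On the HOXC side these were CALCOCO1 (1 and 1 intervals), SMUG1 (3 and 6) and CBX5, which encodes a heterochromatin protein (9 and 12). On the HOXB side they were SKAP1 (4 and 3) and TTLL6 (2 and 4), and on the HOXA side SKAP2 (3 and 3). The homeobox genes EVX1 and EVX2, which sit at the posterior ends of HOXA and HOXD, had none, nor had the HOXD neighbours MTX2 and LNPK or the HOXB13 neighbours PRAC1 and PRAC2. The 5′ end of LNPK lay 16868 bases from an interval in NC, nearer than that of EVX2 at 64616 bases and of MTX2 at 250096 bases.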
